A study of Arabidopsis thaliana with 8 samples.

Results

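The chloroplast of Arabidopsis thaliana carries its own small circular genome, and the rows of the deposited expression table whose locus identifier begins with ATCG are its genes. The table held 133 such rows. Members were the rows above 0 in at least 2 of the 8 libraries, which gave 98 of the 34354 rows of the table. Of the other plastid rows, 25 were listed at 0 in all libraries and 10 were above 0 in 1 library only. Genotypes were compared, Col-0 as the wild type and pif4-2 pif5-3, a double mutant on the Col-0 background with lesions in PIF4 and PIF5, transcription factors of light and temperature signalling. Plants grown on soil at 22 °C to an age of 3 weeks were either mock-treated or kept at 42 °C for 5 h and returned to growth for 3 d before their 3rd and 4th rosette leaves were taken. By the series' design text their margins were starting to yellow, and the title of the series names heat-induced leaf senescence as its question. There were 2 libraries for each genotype and treatment. The recovery time is given for the heat groups, so whether mock leaves were of the same age at harvest was not checked.

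The plastid genome encodes core subunits of the photosystems, of the cytochrome b6f complex, of the ATP synthase and of the NADH dehydrogenase-like (NDH) complex, the large subunit of Rubisco, part of the plastid ribosome and the plastid-encoded RNA polymerase. Most photosynthesis genes are transcribed by that polymerase, guided by nucleus-encoded sigma factors, and a phage-type polymerase encoded in the nucleus transcribes mainly housekeeping genes such as rpoB. Genes are often transcribed together and cut apart afterwards, and in a senescing leaf the chloroplast is dismantled early.

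The mutated genes were examined first. PIF4 was at 131.4 and 131.5 FPKM in wild-type mock and at 33.5 and 33.6 FPKM in mutant mock, and PIF5 was at 63.2 and 66.4 FPKM against 5.60 and 4.70 FPKM. FPKM are fragments per kilobase of the row's length and scaled by the reads of the library. Library totals recovered from the steps of the values ran from 16852240 to 29535916 reads. Plastid rows took 4137 to 9192 of these reads per library, so the depth per member was low: 36 of the 75 members tested had a mean under 20 reads per library. One read in a row of 100 bases was worth 0.339 FPKM in the deepest library and 0.593 FPKM in the shallowest. Whether RNA was selected by poly(A) tail or depleted of ribosomal RNA is not given in the sources used here. The leaf markers RBCS1A, LHCB1.1, LHCB3 and CA1 were at 802 to 8829.7 FPKM, and of the markers of other organs IRT1, SESA1 and CRU1 were listed at 0, AG reached at most 0.329 FPKM and PYK10, a root beta-glucosidase, was at 11.2 and 11.01 FPKM in wild-type mock, 12.7 and 13.8 in wild-type heat, 23.9 and 24.5 in mutant mock and 14.3 and 13.1 in mutant heat. PYK10 was higher in mutant than in wild-type mock (1.06 (adjusted p = 1.01e-06), limma), higher with heat in the wild type (0.23 (adjusted p = 0.0218)) and lower with heat in the mutant (-0.78 (adjusted p = 5.48e-05)). Of the leaf markers, LHCB1.1 (-0.74), LHCB3 (-0.33) and CA1 (-0.28) were lower in mutant than in wild-type mock in log2(FPKM + 1). The part of these marker differences in the results was not tested. Libraries are separate samples by their labels, and p-values measure the spread between these samples only.

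The table names rows by locus, and the reference annotation does not pair these loci with names, so TAIR's gene names were used for 81 members. Row lengths recovered from the steps of the values were equal to the annotated spliced length of the named gene for 78 of the 81. The exceptions were matK, ycf3 and ndhD, and 19 of the 78 share their length with another plastid gene, such as psbA with psbD, so that for these the name rests on TAIR alone. The other 17 members are short rows of 71 to 92 bases. Of these, 15 have the length of an annotated tRNA gene, and they are called here by locus. A search of the coding sequences of 75 named members against the nuclear chromosomes and the mitochondrial record found matches of at least 95% identity over at least 100 bases for 10 members, among them the tested psbA, atpI, rps2, rpoB and rbcL. How reads that fit several places were assigned is not given, so the values of these 5 are less certain. The 17 short rows were not searched and matches under 100 bases were not kept, so copies of other members are not excluded.

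The coding sequences of 4 short reading frames are shown because these genes had the highest levels per length among the members. They were read from the plastid record of TAIR10.1 at Pltd:7583-7693 and Pltd:7017-7202 on the plus strand, at Pltd:28707-28811 on the minus strand and at Pltd:113449-113607 on the plus strand. Capitals mark the start and the stop codon. psbI, psbK and psbM encode small membrane-spanning subunits of photosystem II, and rpl32 encodes a protein of the large ribosomal subunit.
psbI: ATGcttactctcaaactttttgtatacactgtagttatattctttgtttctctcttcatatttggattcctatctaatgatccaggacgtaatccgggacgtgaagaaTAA
psbK: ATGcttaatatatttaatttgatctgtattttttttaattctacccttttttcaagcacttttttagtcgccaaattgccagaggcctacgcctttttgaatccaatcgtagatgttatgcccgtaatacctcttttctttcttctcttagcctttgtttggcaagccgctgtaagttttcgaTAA
psbM: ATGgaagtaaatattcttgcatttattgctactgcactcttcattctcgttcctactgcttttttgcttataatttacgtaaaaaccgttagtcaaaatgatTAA
rpl32: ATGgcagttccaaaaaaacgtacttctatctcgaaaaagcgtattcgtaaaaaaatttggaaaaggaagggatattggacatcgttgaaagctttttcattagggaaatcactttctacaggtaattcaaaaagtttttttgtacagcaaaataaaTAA

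Neighbouring plastid genes can share bases, and 3 such junctions are shown because their genes are compared further on. They lie at Pltd:52630-52693 and Pltd:83437-83512, both on the minus strand, and at Pltd:33690-33802 on the plus strand. Capitals mark the bases that are read in both genes. They number 4 between atpB and atpE, 16 between rpl22 and rps3 and 53 between psbD and psbC, with 30 bases shown on each side. A read over such a junction belongs to both genes.
atpB/atpE: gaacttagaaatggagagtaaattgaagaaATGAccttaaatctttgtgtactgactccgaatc
rpl22/rps3: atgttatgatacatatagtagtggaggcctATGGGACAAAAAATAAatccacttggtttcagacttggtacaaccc
psbD/psbC: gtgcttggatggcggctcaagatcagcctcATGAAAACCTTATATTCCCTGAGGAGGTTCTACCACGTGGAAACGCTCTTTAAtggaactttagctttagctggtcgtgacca

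Levels differed widely among members. Over all 8 libraries psbI averaged 99.6 FPKM, rpl32 96.04 FPKM, psbK 70.7 FPKM and psbM 60.4 FPKM. The short locus ATCG00100, at 40.2 FPKM, and atpB, the beta subunit of the ATP synthase catalytic core, at 37.6 FPKM, came next. In each other class the highest member was psaJ for photosystem I (23.5 FPKM), cemA, an envelope membrane protein (16.4 FPKM), rbcL, the large subunit of Rubisco (13.5 FPKM), petL for the cytochrome b6f complex (12.9 FPKM), ndhK for the NDH complex (4.94 FPKM), rpoB, the beta subunit of the polymerase (3.65 FPKM), rps3 for the small ribosomal subunit (2.97 FPKM), ycf3, a photosystem I assembly factor (1.23 FPKM), and the 23S ribosomal RNA row rrn23S.2 (0.483 FPKM). Of the 14 members above 10 FPKM, 9 were shorter than 210 bases, against 35 of all 98 members. In reads the order was another: atpB held 19.2% of the 53494 plastid reads of the 8 libraries, psbA 8.76%, rbcL 6.5%, rpl32 5.06% and psbK 4.41%.

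The summed level of the members was 812 and 718 FPKM in wild-type mock, 639 and 595 in wild-type heat, 788 and 717 in mutant mock and 920.2 and 873 in mutant heat. Both wild-type heat libraries lay below all others and both mutant heat libraries above all others. As RPM, reads scaled to the library total, the plastid rows stood at 328 and 311 in wild-type mock, 251 and 235 in wild-type heat, 311 and 304 in mutant mock and 317 and 309 in mutant heat, so by reads the wild-type heat libraries again lay lowest, while the mutant heat libraries lay within the range of the mock libraries. The 2 measures differ because FPKM weight short genes more. The ATP synthase members summed to 105 ± 1.47 FPKM (SD, n = 2) in wild-type mock and 63.5 ± 1.44 in wild-type heat, and the photosystem II members to 276 ± 32.8 and 230 ± 25.4. Mitochondrial rows went the other way in the wild type, with sums of 152 and 160 FPKM in mock and 206 and 211 after heat, and lay at 154 to 169 FPKM in the 4 mutant libraries. The members held 0.0925% to 0.138% of the summed FPKM of a library. In RNA from whole leaves, fewer chloroplasts or plastid genomes and less RNA from each cannot be told apart. As the selection of RNA is not given, a change in the part of the plastid RNA that entered the libraries cannot be told apart from these either.

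**Figure D1:**
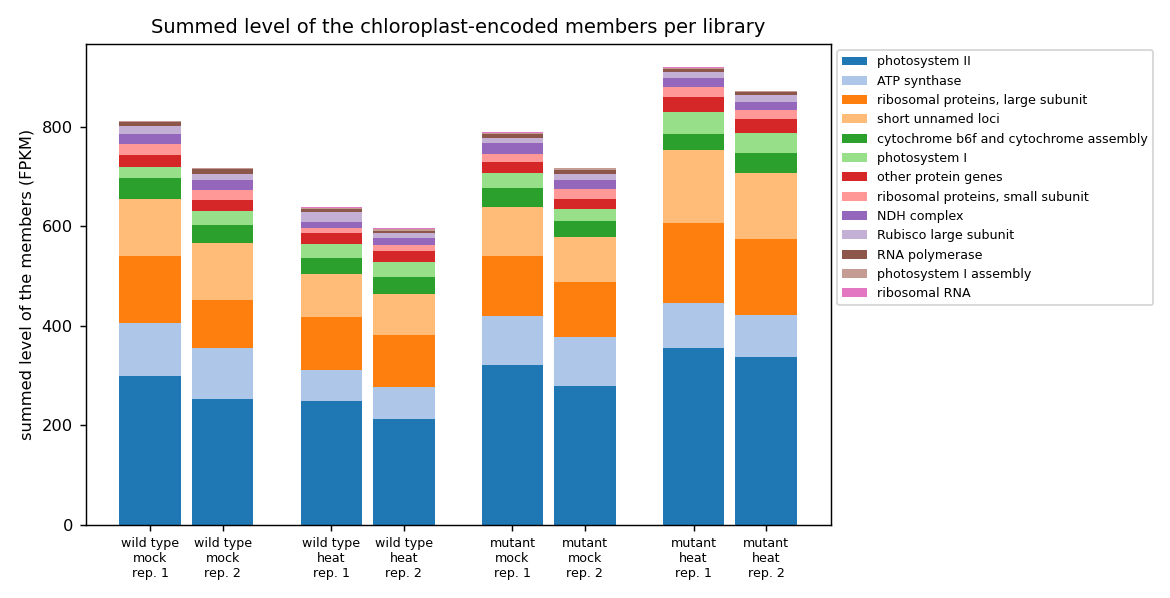
Summed level of the 98 chloroplast-encoded members (y axis, FPKM) in each of the 8 libraries (x axis), stacked by class of gene. The 2 wild-type heat libraries, at 639 and 595 FPKM, are the lowest, and the 2 mutant heat libraries, at 920.2 and 873 FPKM, are the highest.

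Heat against mock in the wild type asks how the plastid transcripts stood 3 d after the heat treatment. Of 75 members tested, 27 (36%) were lower and 1 (1.33%) was higher at a Benjamini-Hochberg adjusted p below 0.05 (limma, over 16831 genes), against a background of 16.9% of all genes lower and 21.5% higher. The median change of the members was -0.35 on the log2(FPKM + 1) scale, which understates changes of genes at low FPKM, and that of all genes was 0.02. Lower members were found in the ATP synthase (5 of 6 tested), the NDH complex (5 of 6), photosystem II (6 of 13), the polymerase (2 of 3), the small ribosomal subunit (3 of 9), the short loci (4 of 15), the cytochrome b6f group (1 of 6) and the large ribosomal subunit (1 of 7). None of the 5 tested photosystem I members was called, their changes running from -0.35 for psaB and -0.26 for psaA to 0.74 for psaI, nor were rbcL, cemA or clpP1. With limma-voom on the recovered reads, 14 members (18.7%) were lower and 1 (1.33%) was higher, against 17.0% of all genes lower and 22.7% higher. In that fit the share called lower was thus near that of all genes. All 15 were among the 28 calls above.

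Of the 6 ATP synthase genes 5 fell. atpB was at 42.99 and 44.8 FPKM in wild-type mock, 26.6 and 26.4 in wild-type heat, 41.2 and 42.8 in mutant mock and 37.3 and 38.4 in mutant heat. The heat libraries of the wild type lay below all 6 others, and the change was -0.71 ± 0.05 (SE; adjusted p = 4.75e-07). atpE, the epsilon subunit of the same catalytic core, was at 28.8 and 29.4 FPKM in wild-type mock, 17.6 and 17.9 in wild-type heat, 26.6 and 30.2 in mutant mock and 28.4 and 29.4 in mutant heat, and fell by 0.68 ± 0.07 (SE; adjusted p = 5.82e-06). Genes of the membrane sector lie in another transcription unit. There atpI was at 4.42 and 3.84 FPKM in wild-type mock, 2.37 and 2.42 in wild-type heat, 4.74 and 4.32 in mutant mock and 3.36 and 2.53 in mutant heat and changed by -0.59 ± 0.13 (SE; adjusted p = 0.00269), with no overlap between the wild-type groups. atpH, which encodes the subunit of the rotating ring, was at 13.96 and 11.9 FPKM in wild-type mock, 7.04 and 6.92 in wild-type heat, 12.2 and 9.28 in mutant mock and 9.86 and 5.07 in mutant heat and changed by -0.80 ± 0.21 (SE; adjusted p = 0.00938). atpA, the alpha subunit, changed by -0.49 ± 0.12 (SE; adjusted p = 0.00694), while the value of atpF, -0.49, did not pass the test (adjusted p = 0.0637).

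In photosystem II the reaction-centre gene psbA was at 27.4 and 24.2 FPKM in wild-type mock, 20.2 and 19.3 in wild-type heat, 27.9 and 25.7 in mutant mock and 26.2 and 22.9 in mutant heat and fell by 0.37 ± 0.08 (SE; adjusted p = 0.0033). The wild-type heat libraries again lay below the 6 others. Of the inner antenna genes, psbC was at 2.53 and 2.28 FPKM in wild-type mock, 1.28 and 1.44 in wild-type heat, 2.19 and 2.25 in mutant mock and 2.12 and 1.71 in mutant heat with a change of -0.53 ± 0.12 (SE; adjusted p = 0.00521), and psbB changed by -0.34 ± 0.11 (SE; adjusted p = 0.0239). psbH, a small phosphoprotein, was at 2.88 and 2.52 FPKM in wild-type mock, 1.05 and 1.02 in wild-type heat, 1.37 and 2.47 in mutant mock and 2.68 and 2.94 in mutant heat and changed by -0.86 ± 0.16 (SE; adjusted p = 0.00123). Its mean was 10.5 reads per library. psbE, a cytochrome subunit, and psbK were also lower, at -0.54 and -0.29. psbD, the partner of psbA in the reaction centre, had a log2 difference of -0.25 (adjusted p = 0.0792) and psbI one of -0.07 (adjusted p = 0.744), neither of which passed. The log2 difference was negative for all 13 tested photosystem II members on the deposited scale, but for 9 of the 13 relative to the summed plastid level, where psbD (0.01), psbK (0.01), psbM (0.04) and psbI (0.24) were above 0, none of them called.

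Elsewhere petA, which encodes cytochrome f, was at 6.55 and 6.57 FPKM in wild-type mock, 4.43 and 4.3 in wild-type heat, 6.58 and 5.12 in mutant mock and 4.09 and 3.88 in mutant heat and changed by -0.49 ± 0.11 (SE; adjusted p = 0.00415). petB, the cytochrome b6 gene, was at a log2 difference of -0.32, not called (adjusted p = 0.0851). Among NDH genes, ndhA was at 0.995 and 1.11 FPKM in wild-type mock, 0.26 and 0.367 in wild-type heat, 0.75 and 1.01 in mutant mock and 0.761 and 0.657 in mutant heat and changed by -0.64 ± 0.14 (SE; adjusted p = 0.00296). ndhC, ndhG, ndhK and ndhE were lower too, at -0.52, -0.60, -0.33 and -0.99, although ndhE rested on a mean of 4.5 reads per library and was listed at 0 in both wild-type heat libraries. ndhA passed the filter of 1 FPKM in at least 2 libraries only through mock libraries, and ndhG only through wild-type mock. Each was high there, which favours a lower value with heat. The polymerase genes rpoC1 and rpoA changed by -0.53 and -0.47, and rpoB, at 4.11 and 4.28 FPKM in wild-type mock and 3.36 and 3.81 in wild-type heat, was not called at -0.18 (adjusted p = 0.207). Ribosomal protein genes were divided. rpl33 (-0.57) and rps12A, the first part of the trans-spliced rps12 (-1.06), were among the lower ones. rpl22, at 0.909 and 1.24 FPKM in wild-type mock, 2.81 and 2.35 in wild-type heat, 1.05 and 1.51 in mutant mock and 2.27 and 1.35 in mutant heat, was the one member that rose, by 0.79 ± 0.18 (SE; adjusted p = 0.00352). rbcL was at 15.2 and 13.2 FPKM in wild-type mock, 19.6 and 9.97 in wild-type heat, 11.8 and 11.9 in mutant mock and 12.2 and 13.9 in mutant heat, and its wild-type heat libraries spanned all the others (log2 difference -0.01 ± 0.21, SE; adjusted p = 0.971).

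Many of these calls rest on single libraries. In the wild-type heat comparison psbA, psbC, psbH, petA, atpB, atpE, atpI, rpl33, rpl22 and ATCG00030 kept their limma call with each of the 8 libraries left out. Of these, psbH, rpl33 and ATCG00030 were not called by limma-voom. ndhA reached 1 FPKM in 1 wild-type mock and 1 mutant mock library alone. The fits without either of these did not test ndhA, and it kept its call in the other fits. Without wild-type mock replicate 1, the adjusted p was 0.356 for psbK, 0.152 for ATCG00100, 0.0554 for atpA, 0.0605 for atpH, 0.103 for ATCG00230, 0.127 for ndhK and 0.141 for rpoA. Without wild-type mock replicate 2, it was 0.222 for rps12A, 0.0757 for rpoC1, 0.161 for ATCG00200, 0.0931 for ATCG00230, 0.0761 for ndhK, 0.27 for psbE, 0.133 for psbB and 0.116 for rpoA. With a heat library left out the losses were others in part. Without wild-type heat replicate 1, it was 0.21 for rps12A, 0.168 for psbK, 0.0749 for atpA, 0.0767 for rpoC1, 0.178 for ATCG00200, 0.11 for ATCG00230, 0.21 for ndhK, 0.0656 for psbB and 0.0877 for ndhE. Without wild-type heat replicate 2, it was 0.0652 for psbK, 0.229 for ATCG00100, 0.113 for ATCG00230, 0.0614 for ndhC, 0.191 for psbE, 0.102 for psbB, 0.309 for rpoA, 0.0899 for ndhE and 0.0626 for ndhG. Leaving out any of the 4 wild-type libraries gave 2 members called higher in place of 1.

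**Figure D2:**
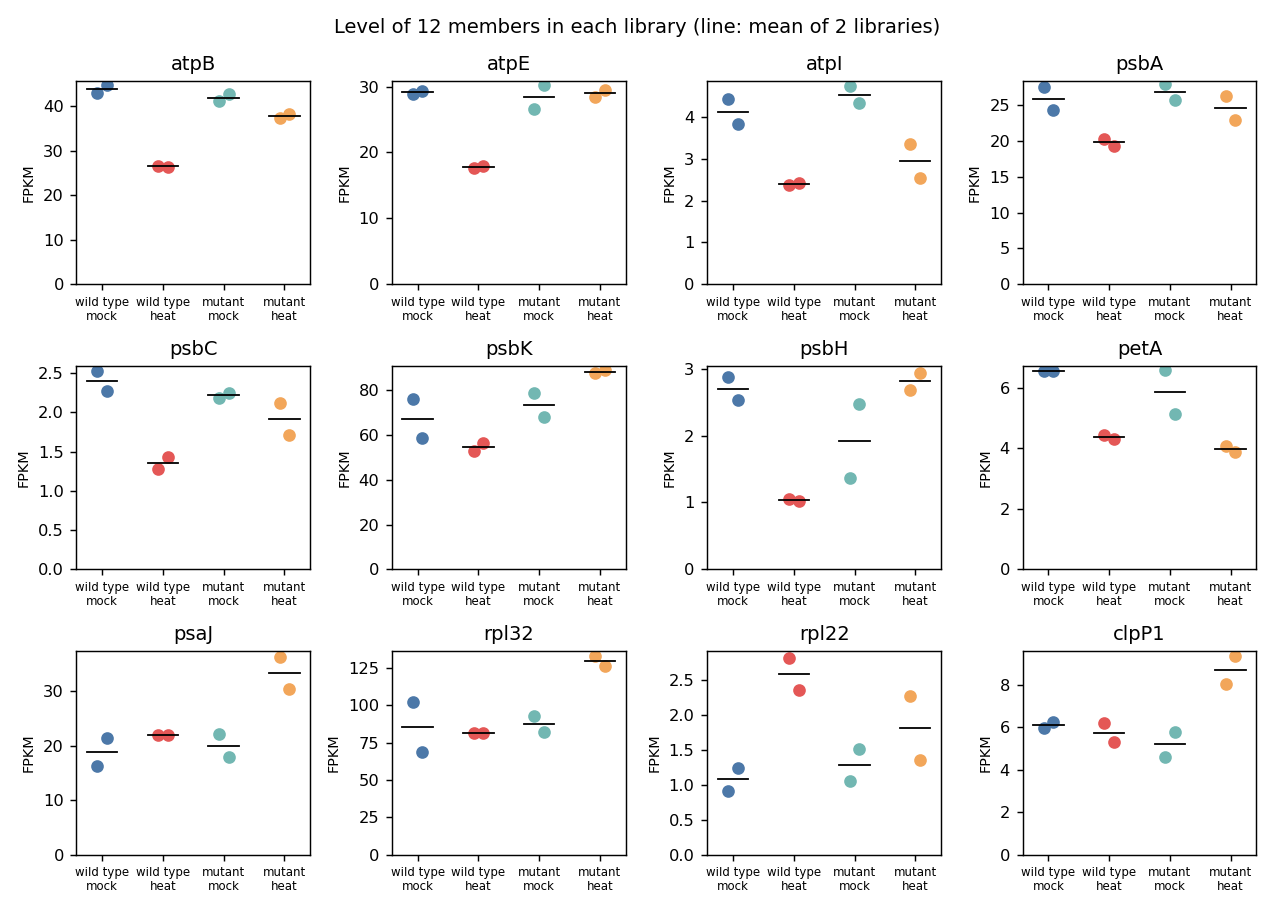
Level of 12 members (y axis, FPKM) in each library of the 4 groups (x axis; points are libraries, lines the means of 2). For atpB, atpE, psbA and psbH the wild-type heat libraries lie below the other groups, for rpl22 they lie above, and for psaJ, rpl32 and clpP1 the mutant heat libraries lie highest.

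The same treatment in the double mutant gave another picture. Of 75 members, 10 (13.3%) were higher and 5 (6.67%) lower, against 6.28% of all genes higher and 13.9% lower. The median change was 0.03, with -0.06 for all genes. With limma-voom, 7 members (9.33%) were higher and 2 (2.67%) lower, against 6.36% and 17.3% of all genes. Higher were 5 short loci, psaJ, clpP1, cemA, rpl32 and rpl33, and lower were rpl36, ndhC, rpoC1, atpI and petA. psaJ, a small subunit of photosystem I, was at 16.3 and 21.3 FPKM in wild-type mock, 21.9 and 21.9 in wild-type heat, 22.1 and 17.9 in mutant mock and 36.3 and 30.3 in mutant heat and rose by 0.71 ± 0.12 (SE; adjusted p = 0.00253). Both mutant heat libraries lay above the other 6. clpP1, the proteolytic subunit of the plastid Clp protease, was at 5.95 and 6.23 FPKM in wild-type mock, 6.18 and 5.28 in wild-type heat, 4.58 and 5.79 in mutant mock and 8.05 and 9.34 in mutant heat and rose by 0.65 ± 0.12 (SE; adjusted p = 0.00333). rpl32 was at 102 and 68.5 FPKM in wild-type mock, 81.3 and 81.7 in wild-type heat, 92.8 and 82.4 in mutant mock and 133 and 126 in mutant heat and rose by 0.56 ± 0.13 (SE; adjusted p = 0.0115), and cemA rose by 0.36 ± 0.10 (SE; adjusted p = 0.0202). Of the short loci ATCG00100 was at 42.7 and 39.5 FPKM in wild-type mock, 36.6 and 31.9 in wild-type heat, 34.3 and 30.6 in mutant mock and 56.4 and 49.6 in mutant heat and rose by 0.69 ± 0.08 (SE; adjusted p = 2.92e-04). ATCG00410 (1.86), ATCG00010 (1.41) and ATCG00390 (1.33) had larger changes on means of 5.12, 6.75 and 2.12 reads per library.

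Among the 5 members that fell in the mutant, petA changed by -0.45 ± 0.11 (SE; adjusted p = 0.0164), atpI by -0.49 ± 0.13 (SE; adjusted p = 0.0179), ndhC by -0.61 ± 0.13 (SE; adjusted p = 0.00826), rpoC1 by -0.54 ± 0.15 (SE; adjusted p = 0.0224) and rpl36 by -1.08 ± 0.32 (SE; adjusted p = 0.0325). Of these, all but rpl36 were also lower in the wild type. atpB and atpE did not pass the test in the mutant, at -0.15 (adjusted p = 0.0659) and 0.03 (adjusted p = 0.783), nor did psbA at -0.12 (adjusted p = 0.303), psaA at -0.19 or psaB at -0.32. The 5 lower calls depended on single libraries. Without mutant mock replicate 1, the adjusted p was 0.0952 for atpI, 0.0651 for rpoC1, 0.0722 for ndhC, 0.136 for petA and 0.0528 for rpl36, and 1 member was called lower. Without mutant mock replicate 2, it was 0.0593 for atpI, 0.123 for rpoC1, 0.123 for ATCG00200, 0.0691 for ATCG00390, 0.174 for cemA, 0.33 for rpl33, 0.173 for rpl36 and 0.0852 for rpl32, and 2 were called lower. Heat libraries mattered as much. Without mutant heat replicate 1, it was 0.147 for ATCG00200, 0.132 for cemA, 0.0542 for petA, 0.0977 for rpl33 and 0.0693 for rpl32. Without mutant heat replicate 2, it was 0.14 for atpI, 0.152 for rpoC1, 0.0768 for ATCG00390, 0.0725 for ndhC, 0.09 for petA, 0.181 for rpl33, 0.258 for rpl36 and 0.0505 for rpl32, and 0 members were called lower. The call of rpl33 was also lost without wild-type heat replicate 1 (adjusted p = 0.0517) and replicate 2 (0.0515). psaJ, clpP1, ATCG00010, ATCG00100 and ATCG00410 kept their calls in all 8 such fits and with limma-voom.

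Between the genotypes in mock few members differed. None was higher in the mutant and 5 (6.67%) were lower, against 13.0% of all genes higher and 7.69% lower. The share called lower was thus near that of all genes. At an unadjusted p below 0.05 by limma, 0 members were higher and 9 lower, against 22.9% and 11.5% of all genes. By limma-voom 0 were called higher and 1 (1.33%) lower, against 17.8% and 8.97% of all genes. The median difference was -0.09, with 0.06 for all genes. ndhG, an NDH subunit, was at 1.35 and 1.13 FPKM in wild-type mock, 0.529 and 0.427 in wild-type heat, 0.255 and 0.344 in mutant mock and 0.517 and 0.224 in mutant heat (difference, mutant minus wild type, -0.79 ± 0.15 (SE; adjusted p = 0.00338)). The other 4 were short loci, ATCG00030 (-0.91 ± 0.27 (SE; adjusted p = 0.0338)), ATCG00200 (-0.74 ± 0.15 (SE; adjusted p = 0.00396)), ATCG00390 (-0.90 ± 0.29 (SE; adjusted p = 0.0449)) and ATCG00100 (-0.33 ± 0.08 (SE; adjusted p = 0.015)). ATCG00200 kept its call with each library left out but was not called by limma-voom. ndhG, called by limma-voom, passed the filter only through the group where it was high, which favours a lower value in the mutant. It reached 1 FPKM in the 2 wild-type mock libraries alone. The fits without either of these did not test ndhG, so they could not show whether its call depends on them. It kept its call in the other fits. With wild-type mock replicate 1 left out, the adjusted p was 0.106 for ATCG00100 and 0.292 for ATCG00390, which left 2 members lower, and 2 were higher. With wild-type mock replicate 2 left out, it was 0.209 for ATCG00030, and 1 member was higher. With mutant mock replicate 2 left out, it was 0.208 for ATCG00030, 0.127 for ATCG00100 and 0.358 for ATCG00390. With wild-type heat replicate 1 left out, it was 0.0562 for ATCG00390, and without replicate 2 of that group 0.0556. For atpB the difference in mock was -0.06 (adjusted p = 0.432), for psbA 0.05 (adjusted p = 0.688) and for rbcL -0.24 (adjusted p = 0.451).

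After heat the genotypes differed in many members. The mutant was higher in 25 of 75 (33.3%) and lower in 1 (1.33%), against 11.0% of all genes higher and 17.6% lower. The median difference was 0.35, with -0.03 for all genes, and limma-voom called 12 (16%) higher and 0 lower, against 9.76% and 18.6% of all genes. At an unadjusted p below 0.05 by limma, 36 members were higher and 3 lower, against 15.8% and 23.7% of all genes. Higher were 7 of 13 photosystem II members, 8 of 15 short loci, both tested members of the group of other protein genes (cemA and clpP1), 2 of 6 ATP synthase members, 2 of 7 large and 2 of 9 small ribosomal protein members, 1 of 5 photosystem I members and 1 of 6 NDH members. The wild-type heat libraries enter this comparison and the one with wild-type mock alike, so the 2 sets of values are not independent.

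Of the ATP synthase, atpE differed by 0.67 ± 0.07 (SE; adjusted p = 1.11e-05) and atpB by 0.50 ± 0.05 (SE; adjusted p = 1.73e-05), the mutant heat libraries lying between the wild-type heat and the mock libraries for atpB. atpI, atpH and atpF did not pass, at 0.21, 0.02 and -0.23. In photosystem II, psbK was at 75.8 and 58.5 FPKM in wild-type mock, 52.6 and 56.1 in wild-type heat, 78.5 and 68.00 in mutant mock and 87.4 and 88.7 in mutant heat and differed by 0.69 ± 0.10 (SE; adjusted p = 2.31e-04). psbM, at 66.9 and 52.2 FPKM in wild-type mock, 54.4 and 44.3 in wild-type heat, 60.6 and 61.8 in mutant mock and 67.6 and 75.7 in mutant heat, differed by 0.53 ± 0.11 (SE; adjusted p = 0.00301), and psbI, at 94.2 and 77.2 FPKM in wild-type mock, 93.7 and 70.6 in wild-type heat, 120.5 and 90.9 in mutant mock and 133 and 116 in mutant heat, by 0.61 ± 0.14 (SE; adjusted p = 0.00698). For psbK and psbM the mutant heat libraries lay above the 6 others. psbH differed by 0.90 ± 0.16 (SE; adjusted p = 0.00137), psbB by 0.47 ± 0.11 (SE; adjusted p = 0.00598) and psbA by 0.30 ± 0.08 (SE; adjusted p = 0.0166). psbN, by 0.99, rested on 1.88 reads per library and was listed at 0 in both wild-type heat libraries. rpl32 (0.66 ± 0.13 (SE; adjusted p = 0.00242)), rpl33 (0.70 ± 0.14 (SE; adjusted p = 0.00237)), psaJ (0.58 ± 0.12 (SE; adjusted p = 0.00381)), clpP1 (0.53 ± 0.12 (SE; adjusted p = 0.00575)), cemA (0.45 ± 0.10 (SE; adjusted p = 0.00381)) and ndhK (0.45 ± 0.11 (SE; adjusted p = 0.00842)) were higher as well. The one lower member was petD, subunit IV of the cytochrome b6f complex, at 3.88 and 3.56 FPKM in wild-type mock, 3.78 and 3.64 in wild-type heat, 3.15 and 3.31 in mutant mock and 2.75 and 2.33 in mutant heat and -0.41 ± 0.11 (SE; adjusted p = 0.0152).

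The largest called differences after heat were those of the short loci ATCG00230 (1.51), ATCG00110 (1.36), ATCG00410 (1.18) and ATCG00390 (1.03). Their means were 1.62, 7.88, 5.12 and 2.12 reads per library. psbK, psbM, psbH, atpB, atpE, cemA, psaJ, rpl32, rpl33, ATCG00100, ATCG00110 and ATCG00230 kept their calls with each of the 8 libraries left out. Of these, psbH, rpl33, ATCG00110 and ATCG00230 were not called by limma-voom. Without wild-type heat replicate 1, the adjusted p was 0.0885 for ATCG00090, 0.0893 for ATCG00390, 0.0812 for ndhK, 0.0625 for rps18, 0.15 for psbN and 0.0839 for petD, which left 0 members lower. With wild-type heat replicate 2 left out, it was 0.0823 for ATCG00010, 0.0956 for psbA, 0.225 for ATCG00030, 0.0777 for psbI, 0.0578 for ATCG00390, 0.0568 for clpP1, 0.145 for psbN and 0.0556 for petD, while 3 members were lower. The mutant heat libraries bore on some of the same members. With mutant heat replicate 1 left out, it was 0.155 for psbA, 0.198 for ATCG00030, 0.0648 for psbI, 0.0919 for ATCG00090, 0.0555 for ATCG00410 and 0.101 for rps18, while 5 members were lower. With mutant heat replicate 2 left out, it was 0.146 for ATCG00390, 0.0717 for ndhK, 0.0606 for clpP1, 0.0711 for psbB and 0.107 for petD, which left 0 lower.

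**Figure D3:**
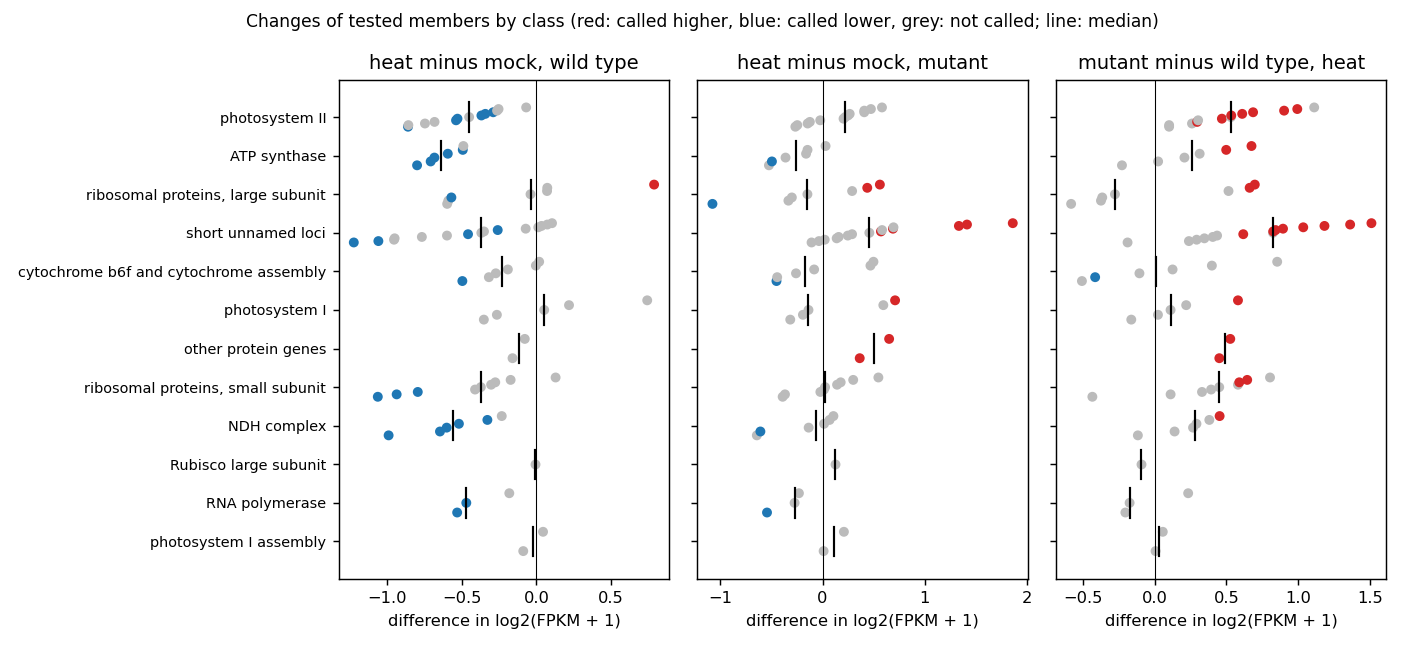
Differences in log2(FPKM + 1) (x axes) of the 75 tested members by class (y axis) for heat minus mock in the wild type, heat minus mock in the mutant and mutant minus wild type after heat. Points are members, red where called higher, blue where called lower and grey where not called, and vertical lines are class medians. With heat the ATP synthase medians were -0.64 (wild type) and -0.26 (mutant), and those of photosystem II were -0.45 and 0.22. Relative to the summed plastid level they were -0.38 and -0.47 for the ATP synthase and -0.25 and -0.02 for photosystem II.

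The difference between the 2 heat changes was tested as the interaction. It was positive, the mutant's change being the higher one, in 22 of 75 members (29.3%) and negative in 0, against 10.3% of all genes positive and 21.6% negative. At an unadjusted p below 0.05 by limma, 0 members were negative and 30 positive, against 28.7% and 13.5% of all genes. By limma-voom 10 (13.3%) were called positive and 0 negative, against 9.93% and 24% of all genes. The median interaction was 0.35, with -0.10 for all genes. atpB and atpE had interactions of 0.56 ± 0.07 (SE; adjusted p = 1.46e-04) and 0.71 ± 0.09 (SE; adjusted p = 1.58e-04), where the wild type fell and the mutant change did not pass the test. For psbH (1.27 ± 0.23 (SE; adjusted p = 0.00154)), rpl33 (1.01 ± 0.19 (SE; adjusted p = 0.00221)), psbK (0.55 ± 0.14 (SE; adjusted p = 0.00991)) and psbB (0.55 ± 0.15 (SE; adjusted p = 0.0162)) the wild-type change was below 0 and that of the mutant above 0. Of these mutant changes only that of rpl33 was called, and limma-voom did not call it, so a rise in the mutant is not shown for the others. clpP1 (0.73 ± 0.17 (SE; adjusted p = 0.00653)), rpl32 (0.60 ± 0.18 (SE; adjusted p = 0.027)), cemA (0.52 ± 0.13 (SE; adjusted p = 0.0115)) and psaJ (0.49 ± 0.17 (SE; adjusted p = 0.0485)) had their called change in the mutant. The largest values were those of the short loci ATCG00390 (1.93), ATCG00410 (1.83), ATCG00030 (1.80) and ATCG00230 (1.75), followed by psbN (1.44). By class, 7 of 15 short loci, 5 of 13 photosystem II members, 2 of 6 ATP synthase members, both cemA and clpP1, 2 of 7 large and 2 of 9 small ribosomal protein members, 1 of 5 photosystem I members and 1 of 6 NDH members had a called interaction. The NDH member, ndhG, passed the filter only through wild-type mock, where it was high, which favours a positive interaction.

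For some members the 2 heat changes lay close together. petA changed by -0.49 and -0.45, with an interaction of 0.04 ± 0.16 (SE; adjusted p = 0.859). rpoC1 changed by -0.53 and -0.54 (interaction -0.01 ± 0.21, SE), and ndhC by -0.52 and -0.61 (interaction -0.09 ± 0.19, SE). The intervals of these interactions are wide compared with their values, so that equal changes are not shown. rbcL had an interaction of 0.14 ± 0.29 (SE; adjusted p = 0.752) and psbA of 0.24 ± 0.11 (adjusted p = 0.127), so for psbA the call in the wild type and its absence in the mutant do not show that the genotypes differ.

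Calls of the interaction that kept with each library left out were those of atpB, atpE, psbK, psbH, rpl33, clpP1, ATCG00010, ATCG00030, ATCG00100, ATCG00200, ATCG00390 and ATCG00410. Of these 12, 7 were also called by limma-voom, and ATCG00010, ATCG00030, ATCG00200, ATCG00390 and ATCG00410 were not. Without wild-type mock replicate 1, the adjusted p was 0.108 for psbM and 0.121 for rps3. Without wild-type mock replicate 2, it was 0.16 for psaJ and 0.0633 for rps3. Heat libraries of the wild type changed more calls. With wild-type heat replicate 1 left out, it was 0.0528 for ATCG00230, 0.101 for psaJ, 0.0903 for psbN, 0.177 for rps3, 0.0656 for rpl32 and 0.0668 for ndhG. Without wild-type heat replicate 2, it was 0.122 for psbM, 0.0512 for ATCG00230, 0.0987 for psaJ, 0.0883 for psbN, 0.0607 for rpl32 and 0.103 for ndhG, and 1 member was called negative. The mutant libraries follow. With mutant mock replicate 1 left out, it was 0.0659 for psbM, 0.141 for rps3 and 0.0895 for ndhG. Without mutant mock replicate 2, it was 0.0622 for psbM, 0.065 for ATCG00230, 0.176 for psaJ, 0.0523 for psbB, 0.157 for psbN, 0.05 for rps3, 0.0907 for rpl32 and 0.0615 for ndhG. For mutant heat the losses were of the same kind. Without mutant heat replicate 1, it was 0.0512 for cemA, 0.176 for psaJ, 0.0747 for rps3, 0.0811 for rpl32 and 0.106 for ndhG, and 2 members were called negative. Without mutant heat replicate 2, it was 0.111 for psbM, 0.066 for psbB, 0.121 for rps3 and 0.051 for rpl32.

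**Figure D4:**
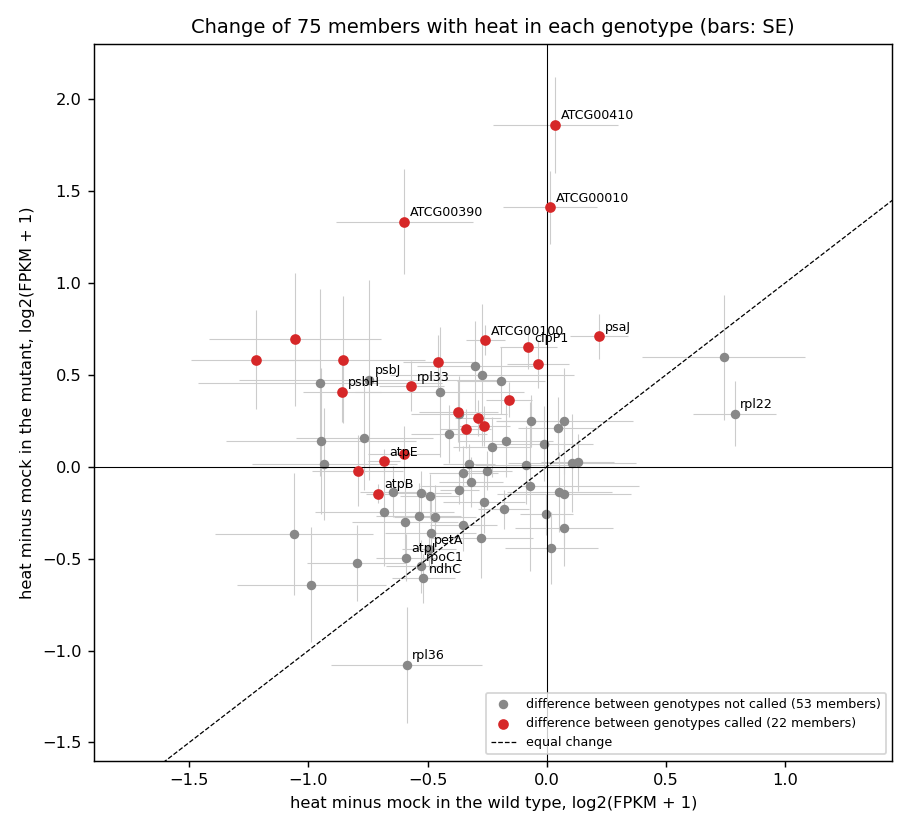
Change with heat in the mutant (y axis) against the change with heat in the wild type (x axis), both in log2(FPKM + 1), for the 75 tested members, with SE bars. Red points are the 22 members with a called difference between the genotypes, all above the dashed line of equal change, and grey points are the other 53.

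Genes of one transcription unit did not always share a change. In the wild type with heat, atpB and atpE, which share the junction printed above, changed by -0.71 and -0.68. The unit of atpI, atpH, atpF and atpA ranged from -0.80 for atpH to -0.49 for both atpF and atpA, while rps2, listed first in it, was at 0.13. In the ribosomal protein unit that ends with rpoA rpl22 was at 0.79 and rpoA at -0.47, and rps3, whose first bases lie within the end of rpl22, was at -0.37 (adjusted p = 0.101). In the psbB unit psbH was at -0.86, psbB at -0.34 and petD at -0.00. The psaA, psaB and rps14 unit spanned -0.35 to -0.26, with no member called. The psbD unit ran from -0.68 for psbZ to -0.25 for psbD, with psbC at -0.53. These are values within a unit, and differences between neighbours were not tested.

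With heat in the mutant, short and long members had unlike median changes. Of the tested members, 31 were shorter than 210 bases and 44 were longer. With heat in the wild type their median changes were -0.35 and -0.36, and with heat in the mutant 0.44 and -0.13. After heat the median difference between mutant and wild type was 0.61 for the short and 0.22 for the long members. Among 96 tested nuclear genes shorter than 210 bases the medians were 0.06 (wild type) and -0.23 (mutant). The 15 tested short unnamed loci had a median of 0.46 with heat in the mutant, 13 of them above 0. The part of row length in the members' changes was not tested.

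Because the summed plastid level itself moved, changes were also taken relative to it. That sum is of FPKM, which weight short genes more. From mock to heat its mean went from 753 to 896 FPKM in the mutant and from 765 to 617 in the wild type. The mean plastid RPM went from 308 to 313 and from 320 to 243. Counts on this scale therefore depend on the measure summed. With all rows scaled to the summed plastid level, the median of all genes became 0.29 for heat in the wild type and -0.28 for heat in the mutant, and the medians of the members were -0.10 and -0.11. On that scale 17 members were lower and 4 higher with heat in the wild type, against 4.51% of all genes lower and 49.9% higher. With heat in the mutant 19 were lower and 7 higher, against 46.5% and 1.65%. In mock the mutant was lower in 7 and higher in 0, against 3.91% and 6.13%. After heat it was lower in 15 and higher in 11, against 82.3% and 1.31%, and 7 interactions were negative and 11 positive, against 71.5% and 1.51%. atpB, atpE, atpI and ndhA remained lower in the wild type with heat, and rpl22 remained higher. Calls of psbA, psbC and petA in the wild type, and of the higher level of atpB, cemA and psaJ in the mutant, which the other scalings kept, were lost. Of the calls on the deposited scale, 14 of 28, 12 of 15, 5 of 5, 10 of 26 and 10 of 22 held there, in the order heat in the wild type, heat in the mutant, genotypes in mock, genotypes after heat and interaction.

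Nuclear genes that act in plastid gene expression were examined beside the members. Of 29 measured genes, 2 were higher and 10 lower with heat in the wild type (all genes, 21.5% and 16.9%), and 5 higher and 10 lower in the mutant (6.28% and 13.9%), with medians of -0.10 and -0.15. The mutant was higher in 6 and lower in 3 of them in mock (13.0% and 7.69%) and higher in 5 and lower in 1 after heat (11.0% and 17.6%). Of the interactions 5 were positive and 8 negative (10.3% and 21.6%), with the smallest p for CSP41A (0.43 (adjusted p = 2.37e-04)), CSP41B (0.34 (adjusted p = 4.21e-04)) and SIG5. SIG5, a sigma factor that responds to light and stress, was at 12.2 and 11.9 FPKM in wild-type mock, 8.61 and 9.33 in wild-type heat, 8.85 and 7.06 in mutant mock and 9.7 and 10.5 in mutant heat. It was lower with heat in the wild type (-0.39 (adjusted p = 0.00876)), higher in the mutant (0.32 (adjusted p = 0.0449)) and lower in mutant mock than in wild-type mock (-0.55 (adjusted p = 0.00237)), with an interaction of 0.71 (adjusted p = 0.00291). SIG4 was higher with heat in both genotypes, by 0.24 (adjusted p = 0.00739) and 0.19 (adjusted p = 0.0468). SIG1, SIG2, SIG3 and SIG6 passed in no comparison. The phage-type polymerase genes RPOT3, whose product works in plastids, and RPOT2, whose product works in plastids and mitochondria, were lower with heat in the mutant, by -0.58 (adjusted p = 0.00155) and -0.56 (adjusted p = 0.0102), whereas the wild type had 0.01 and 0.12 without a call. Their interactions were -0.59 (adjusted p = 0.00504) and -0.68 (adjusted p = 0.0128). rpoB and rpoC1, transcribed mainly by the nucleus-encoded polymerase, were at -0.23 and -0.54 with heat in the mutant and at -0.18 and -0.53 in the wild type. rpoC1 was called in both genotypes. Their interactions, -0.05 and -0.01, were not called.

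Among 12 proteins associated with the plastid-encoded polymerase, 6 were lower with heat in the wild type, where 16.9% of all genes were, with the smallest p for FLN1 (-0.81 (adjusted p = 2.83e-06)), PTAC14 (-0.34 (adjusted p = 7.91e-04)) and TRXz (-0.28 (adjusted p = 0.00548)), and 5 were lower and 1 higher in the mutant (13.9% and 6.28% of all genes), with the smallest p there for FLN1 (-0.51 (adjusted p = 8.75e-04)), PTAC2 (-0.45 (adjusted p = 0.00286)) and MURE (-0.36 (adjusted p = 0.00538)). FLN1, a fructokinase-like protein, was at 18.8 and 17.4 FPKM in wild-type mock, 10.02 and 9.78 in wild-type heat, 17.1 and 16.9 in mutant mock and 12.04 and 11.2 in mutant heat, so both heat groups lay below both mock groups. PTAC7 was the higher one in the mutant (0.24 (adjusted p = 0.0111)), and its interaction was 0.34 (adjusted p = 0.00685). Of 9 measured genes of plastid RNA stability and processing, CSP41A, which encodes an RNA-binding protein with endonuclease activity, was lower with heat in the wild type (-0.25 (adjusted p = 4.90e-04)) and higher in the mutant (0.18 (adjusted p = 0.0133)). CSP41B was higher in the mutant (0.40 (adjusted p = 5.10e-05)) and at 0.06 in the wild type, where it did not pass. In the wild type MORF9 (-0.26 (adjusted p = 0.00281)) and PGR3 (-0.29 (adjusted p = 0.00939)) were lower and HCF152 (0.30 (adjusted p = 0.00313)) was higher. In the mutant MRL1 (-0.34 (adjusted p = 0.00324)), PNP (-0.34 (adjusted p = 0.00317)) and PGR3 (-0.33 (adjusted p = 0.0103)) were lower. The leaf markers LHCB1.1 and LHCB3, nuclear light-harvesting genes, fell with heat in the wild type (-0.25, -0.26) and rose in mutant leaves (0.63, 0.39). RBCS1A was higher in both genotypes, by 0.31 and 0.43, and so was CA1, by 0.23 and 0.56, the wild type given first. The part of nuclear genes in the plastid levels was not tested.

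**Figure D5:**
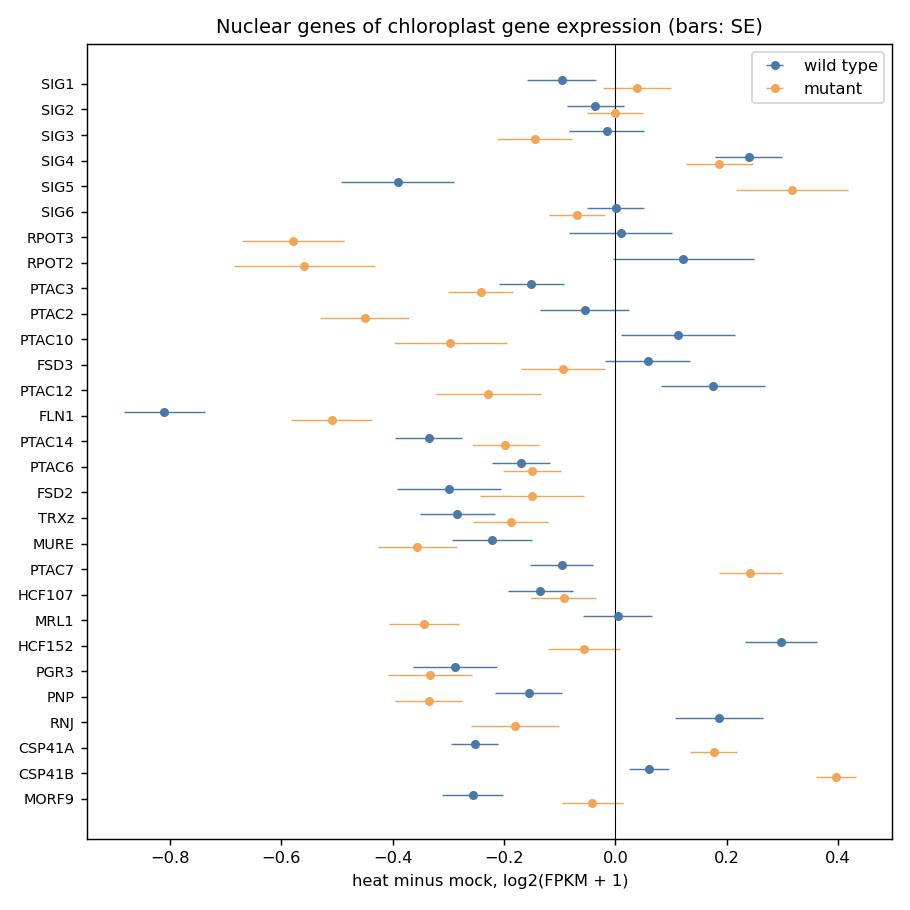
Change with heat in log2(FPKM + 1) (x axis) of 29 nuclear genes of chloroplast gene expression (y axis) in the wild type and the mutant, with SE bars. Wild-type values of SIG5 and CSP41A lie below 0 and mutant ones above, FLN1 lies at -0.81 and -0.51, and RPOT3 and RPOT2 lie below 0 in the mutant.

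The 23 members below the filter of 1 FPKM in at least 2 libraries had mean levels of 0.00193 to 0.739 FPKM. accD, a subunit of the plastid acetyl-CoA carboxylase, was at 0.245 and 0.546 FPKM in wild-type mock, 0.543 and 0.309 in wild-type heat, 0.208 and 0.0934 in mutant mock and 0.406 and 0.121 in mutant heat. ndhF was at 0.249 and 0.143 FPKM in wild-type mock, 0.125 and 0.304 in wild-type heat, 0.181 and 0.326 in mutant mock and 0.163 and 0.265 in mutant heat, matK, an intron maturase, at 0.556 and 0.557 FPKM in wild-type mock, 0.504 and 0.431 in wild-type heat, 0.514 and 0.433 in mutant mock and 0.203 and 0.375 in mutant heat, and ycf1.2, a copy of a gene for an import translocon subunit, at 0.0894 and 0.0896 FPKM in wild-type mock, 0.0874 and 0.169 in wild-type heat, 0.158 and 0.145 in mutant mock and 0.154 and 0.232 in mutant heat. Heat and mock libraries overlapped within each genotype for accD, ndhF and ycf1.2. Between the genotypes, both mutant mock libraries lay below the 4 wild-type libraries for accD, and both wild-type mock libraries lay below the 4 mutant libraries for ycf1.2. For matK the mutant heat libraries were the 2 lowest. Members of the inverted repeat, the stretch present in 2 copies, were at or near 0, among them the 5 ribosomal RNA rows at 0.133 to 0.483 FPKM on average. How reads with several matches were counted is not given in the sources used here.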

How the data were processed

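Gene expression was measured by RNA sequencing of rosette leaves in 8 libraries. Trizol-extracted, DNase-treated total RNA went into directional libraries, per the labels' protocols. The authors deposited FPKM for 34354 rows. TopHat, TopHat2 and edgeR are named as tools and TAIR10 as the build, per the submitters' processing notes, without versions or roles. Nothing used here states how reads were counted or whether strand was used, so overlapping and antisense genes may share reads.

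FPKM were whole multiples of the value of 1 read for 100.0% of 23543 rows above 0 (within 0.1 read), which gave library totals of 16852240 to 29535916 reads and row lengths. Within each group the 2 libraries differed beyond sampling noise. FPKM being no counts, the main test was limma 3.58.1 (R 4.3.3) on log2(FPKM + 1) (lmFit on 4 group means, eBayes with an intensity trend, 4 residual degrees of freedom). The filter of 1 FPKM in 2 or more libraries left 16831 rows with 75 members. Calls were two-sided at 0.05 after Benjamini-Hochberg adjustment over these rows. Results were recomputed with limma-voom on recovered reads, each library left out, 4 scalings, 2 filters, a pseudocount of 0.1, no trend, a replicate block and fits of the compared groups alone.

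Members, gene lists and tests were chosen with earlier results of these data known. Named were 17 fixed members, the highest of each class, the 5 largest called changes per comparison and direction, every member of a count up to 5, and in nuclear lists all called genes or, above 5, the 3 of smallest p. Other named members were chosen after their values were seen. Values of some ribosomal protein members are not reported here. MORF2 was not measured under its listed locus. Simulated reads, with the same spread for all genes and few genes changed, served to test the code. They differ in this from the data and do not measure the error rate of the calls here. Sequences and lengths came from TAIR10.1 (RefSeq), and copies were searched with blastn 2.17.0. Figures were drawn with matplotlib 3.10.9.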

Additional observations from a re-analysis of the deposited data

Results flagged for a closer look

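Heat changes that differed between the genotypes by the interaction test of limma are given here with their values, as the mutant's change minus that of the wild type in log2(FPKM + 1), and 22 members were found. Of photosystem II these were psbH (1.27), psbK (0.55), psbB (0.55), psbM (0.48), psbN (1.44). Of the ATP synthase they were atpB (0.56), atpE (0.71). Ribosomal protein members among them were rpl33 (1.01), rpl32 (0.60), rps3 (0.67), and the others with a name were clpP1 (0.73), cemA (0.52), psaJ (0.49), ndhG (0.67). The short loci were ATCG00390 (1.93), ATCG00410 (1.83), ATCG00030 (1.80), ATCG00230 (1.75), ATCG00010 (1.40), ATCG00200 (1.03), ATCG00100 (0.95). The mean depth of psbN, ATCG00230, ATCG00390 and ATCG00410 was 1.88, 1.62, 2.12 and 5.12 reads per library. ndhG passed the filter only through wild-type mock, where it was high. Groups of 2 libraries were too small for a search for outlying samples, and there was no measurement beside the table.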

How the results depend on the processing

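Counts of called members (limma) are given as lower and higher, with the mutant against the wild type for genotype comparisons. Members tested were 75 in the main fit, 98 with no filter and 36 with a filter of 5 FPKM, so these counts have unlike totals. With heat in the wild type 36% of members were lower in the main fit, 15.3% with no filter, 44.4% at 5 FPKM and 18.7% with limma-voom. With heat in the mutant 6.67% were lower in the main fit and 8.33% at 5 FPKM. In mock 6.67% were lower in the main fit and 2.04% with no filter. Heat in the wild type, with 27 lower and 1 higher, had 15 lower with no filter, 16 lower and 0 higher with a filter of 5 FPKM, 17 lower and 4 higher with plastid-sum scaling and 14 lower with limma-voom, and leaving out single libraries gave 18 to 32 lower and 1 to 2 higher. Heat in the mutant, with 5 lower and 10 higher, had 3 lower with a filter of 5 FPKM, 19 lower with plastid-sum scaling, 2 lower with limma-voom and 6 higher without an intensity trend, and single libraries left out gave 0 to 7 lower and 7 to 11 higher. The genotypes in mock, with 5 lower and 0 higher, had 2 lower with no filter, 2 lower with no trend and 1 lower with limma-voom, and 2 to 7 lower and 0 to 2 higher with single libraries left out. The genotypes after heat, with 1 lower and 25 higher, had 0 lower with a filter of 5 FPKM, 3 lower with nuclear-sum scaling, 15 lower and 11 higher with plastid-sum scaling, 2 lower with no trend, and 0 lower and 12 higher with limma-voom, and 0 to 5 lower and 19 to 27 higher with single libraries left out. The interaction, with 0 negative and 22 positive, had 7 negative and 11 positive with plastid-sum scaling and 10 positive with limma-voom, and 0 to 2 negative and 16 to 22 positive with single libraries left out. Plastid-sum scaling moved all genes too, with 4.51% lower and 49.9% higher for heat in the wild type, 46.5% lower for heat in the mutant, 82.3% lower and 1.31% higher for the genotypes after heat and 71.5% negative and 1.51% positive for the interaction. For the genotypes after heat 19.5% of all genes were lower with a filter of 5 FPKM, 22.2% with nuclear-sum scaling and 15.3% with no trend. For heat in the wild type 12.5% were lower with no filter, and 19.2% were lower and 23.5% higher with a filter of 5 FPKM. For heat in the mutant 18.2% were lower with that filter and 4.36% higher with no trend. In mock 5% were lower with no filter and 5.77% with no trend. Member counts under the settings not listed were within 1.5 times, apart from the replicate block, whose counts are given below. The cause was not tested. Of 96 called member changes, 9 reversed, all with plastid-sum scaling: psbK (0.0146) and ATCG00100 (0.0414) for heat in the wild type, psbA (-0.22), atpB (-0.024), cemA (-0.0585) and psbB (-0.0079) for the genotypes after heat and psbM (-0.0665), cemA (-0.0059) and psaJ (-0.0482) for the interaction. At this depth 49 of the 96 calls did not pass with limma-voom on the reads.

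The deviations of equal replicate numbers correlated at -0.03 to 0.19 over all genes and at -0.19 to 0.29 over the members, and 2 numbers are too few to show a pairing. With the replicate number as a block, heat in the wild type had 30 lower and 1 higher, heat in the mutant 6 lower and 12 higher, the genotypes in mock 7 lower and 1 higher, the genotypes after heat 2 lower and 24 higher, and the interaction 0 negative and 24 positive.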
